A study of Homo sapiens with 2 samples.

Results

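The integrin and laminin subunits are the genes whose symbol on the array platform is ITGA, ITGB, LAMA, LAMB or LAMC followed by a number, together with ITGAD, ITGAE, ITGAL, ITGAM, ITGAV and ITGAX. The rule goes by name and uses no measured value, though it was chosen with earlier results of these data known. Of 19775 genes that the arrays read by a probe set of a single gene, 35 are such subunits, namely 18 integrin alpha, 7 integrin beta, 4 laminin alpha, 4 laminin beta and 2 laminin gamma chains, covered by 95 probe sets. ITGB6, whose probe sets are annotated to a further gene as well, was not analysed here. The study set AsPC-1 cells, a human pancreatic ductal adenocarcinoma (PDAC) line, transfected with PGR siRNA against the same cells with control siRNA. PGR is the progesterone receptor, a steroid-responsive transcription factor. Each condition has 1 array and no replicate, and the sources used here do not say which PGR siRNA duplex was on the array. Both cultures are of 1 cell line, grown in DMEM by the labels and in RPMI by the study's methods.

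Integrins are cell surface receptors made of an alpha and a beta subunit, and the pairing sets which matrix protein they bind. ITGB1 is the common partner of many alpha chains, ITGAV pairs with several beta chains, ITGA6 with ITGB4 holds epithelial cells to the basement membrane at hemidesmosomes, and ITGB2 is the partner of leukocyte integrins. Laminins are secreted trimers of an alpha, a beta and a gamma chain and are main proteins of the basement membrane under epithelial ducts, where several integrins bind them.

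Values are linear intensities, and differences are on the scale log2(intensity + 1), array labelled PGR siRNA minus control-labelled array. The brightest probe set, by its mean over both arrays, stands for each gene. A signal floor of 97.9, set at the median over the probe sets of named genes, marks usable signal. PGR itself lay under it on both arrays, at 16.1 on the control-labelled array and 73.3 on the array labelled PGR siRNA, so the order of its values goes against the labels and no usable PGR level checks them. All directions below rest on the labels. Of 8 markers of ductal tumour epithelium, 7 reached the floor on both arrays and 1 on 1 array. Their summed intensity was 116669 and 121902 on the arrays labelled control and PGR siRNA. None of the 5 leukocyte markers read, PTPRC among them, reached it on both arrays, and CD14 did on 1, with sums of 305 and 233. Of 6 fibroblast markers COL1A1 reached it on both and DCN on 1, with sums of 499 and 519. Of 4 endothelial markers PECAM1 reached it on 1, with sums of 216 and 140.4. None of the 3 acinar markers reached it, with sums of 19.7 and 44.1. The part of other cell types in the subunit values was not tested. Without replicates no test, standard error or p-value was possible, and precision is limited by the number of arrays.

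Usable signal was found for 18 of the 35 subunits, 16 of them on both arrays. These were the alpha chains ITGA2, ITGA3, ITGA5, ITGA6, ITGA9, ITGA10, ITGAE and ITGAV, the beta chains ITGB1, ITGB4, ITGB5 and ITGB8, and the laminin chains LAMA1, LAMA5, LAMB1, LAMB2, LAMB3 and LAMC1. ITGA10 and LAMA1 passed on 1 array each. On the array labelled PGR siRNA, ITGB8 and ITGA5 were lower by at least 1.5-fold and ITGB8 by at least 2-fold. LAMA1 was at least 1.5-fold higher, with its control value under the floor, and no subunit with usable signal was 2-fold higher. Among all 11614 genes past the floor on at least 1 array, 4.72% were at least 1.5-fold lower and 3.65% at least 1.5-fold higher, and 1.58% were at least 2-fold lower and 1.11% at least 2-fold higher. With both values past the floor, 2 of 16 subunits were 1.5-fold lower and none higher, beside 2.31% lower and 1.86% higher of 10840 genes. The counts of subunits are too small to set their share against that of all genes.

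**Figure D1:**
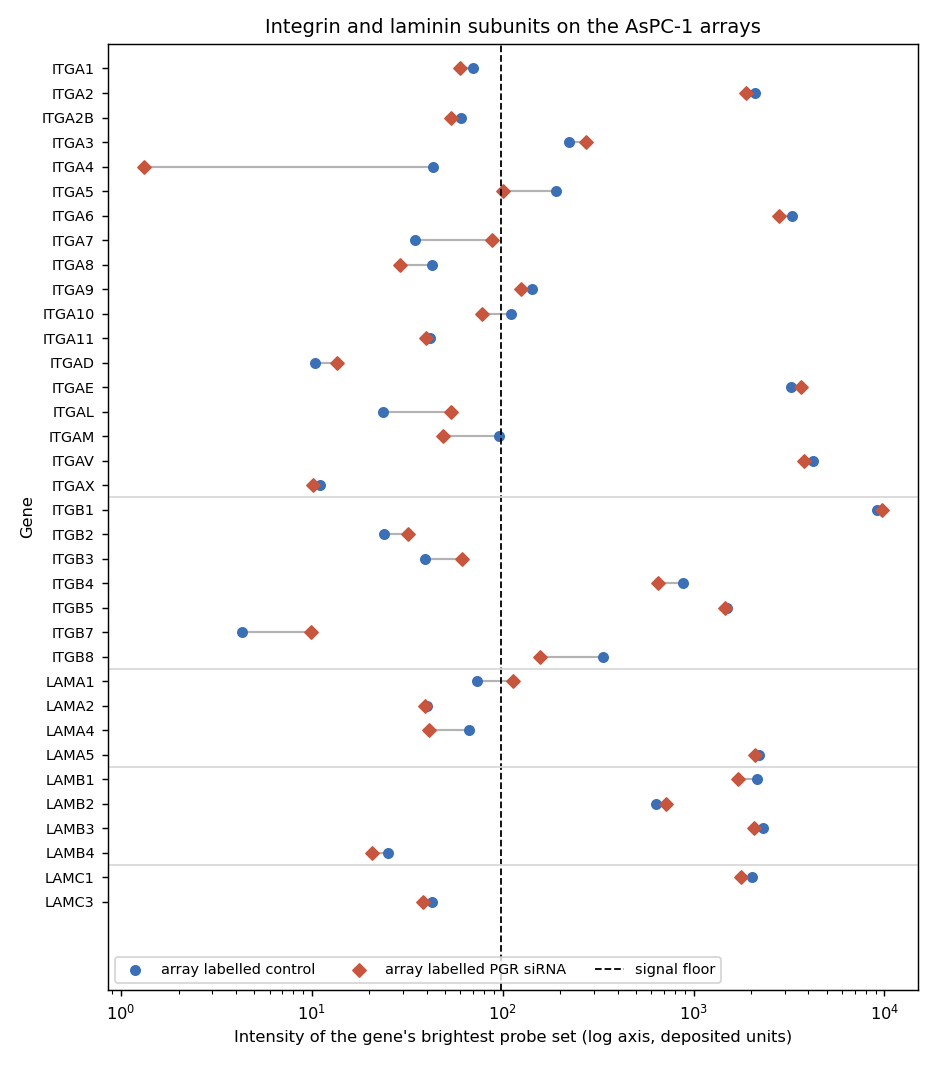
Intensity of the brightest probe set of each of the 35 subunits (log axis, deposited units) on the control-labelled array (circles) and the array labelled PGR siRNA (diamonds), with the signal floor of 97.9 as a dashed line. ITGB8 and ITGA5 show the widest gaps among subunits with both values past the floor, and the wide gaps of ITGA4 and ITGA7 lie under it.

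ITGB8 pairs with ITGAV, and this receptor is known for activating latent TGF-beta. Its brightest probe set read 337 on the control-labelled array and 158 on the array labelled PGR siRNA. Its difference was -1.09, a 2.14-fold lower intensity, with both values past the floor. Of the 1000 genes nearest in signal with both values past the floor, 5 were as low or lower, and their differences had an SD of 0.39. That SD is taken across genes and holds no spread between cultures. The other 4 probe sets of ITGB8 lay under the floor on both arrays, with differences from -2.87 to 0.49, so the value rests on 1 probe set. Averaged over all 5 probe sets, ITGB8 stood at -0.78.

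ITGA5 pairs with ITGB1 as the classical fibronectin receptor. It was read by its only probe set, at 190.5 on the control-labelled array and 100.4 on the array labelled PGR siRNA, just past the floor. The difference was -0.92, a 1.90-fold lower intensity. Among the 1000 genes nearest in signal with both values past the floor, 16 were as low or lower, with an SD of 0.40. So near the floor, this group leaves out genes whose lower value fell under it. Its count and SD are therefore partly set by the floor and do not rank ITGA5. With a floor of 123.4, which 95% of olfactory receptor values do not pass, the lower value is no longer usable and ITGA5 was at least 1.54-fold lower.

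ITGB8 and ITGA5 are the only 2 subunits at least 1.5-fold lower with both values usable, so the bases before their gene starts are shown here. They come from the RefSeq promoter table of GRCh38.p14, in the direction of the gene, and each run ends at the start base. The ITGB8 stretch is chr7:20330650-20330900, plus strand, and that of ITGA5 is chr12:54419266-54419516, minus strand. Capitals mark GC boxes, read as GGGCGG or its reverse complement, and in ITGA5 also an AP-1 element, read as TGANTCA on either strand.
ITGB8: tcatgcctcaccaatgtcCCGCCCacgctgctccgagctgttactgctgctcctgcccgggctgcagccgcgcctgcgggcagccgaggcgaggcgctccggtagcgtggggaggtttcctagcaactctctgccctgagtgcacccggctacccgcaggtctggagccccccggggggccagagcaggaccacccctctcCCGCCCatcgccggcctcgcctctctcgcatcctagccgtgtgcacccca
ITGA5: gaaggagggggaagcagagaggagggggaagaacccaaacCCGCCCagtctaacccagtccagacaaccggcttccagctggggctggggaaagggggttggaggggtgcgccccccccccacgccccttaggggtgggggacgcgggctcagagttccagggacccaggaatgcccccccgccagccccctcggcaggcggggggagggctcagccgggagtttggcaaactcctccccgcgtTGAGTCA
The ITGB8 run holds 2 GC boxes. The ITGA5 run holds 1 GC box and ends in TGAGTCA, which starts 6 bases before the gene start. These matches are letters in a window and not sites of binding, and binding was not measured here.

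Promoter windows of 250 bases before and 50 after a start were at hand for 24 of the 35 subunits, in 31 windows. The progesterone receptor element, searched by the letters of its palindromic consensus on both strands, was in none of these 31, beside 0.39% of all 35116 windows. At so low a share over all windows, 31 windows are too few to read anything from its absence. The letters of an AP-1 element were in 2 of the 31, those of ITGA5 and one of the LAMB3 windows, or 6.45%, beside 7.71% of all windows and 6.15% of 22199 windows of protein-coding genes. GC boxes were in 16 of 21 windows of the subunits with usable signal and in 2 of 10 windows of those under the floor, beside 45.0% of all and 56.3% of those of protein-coding genes. The median GC content was 61.3% in the former and 54.3% in the latter, beside 58.7% over all windows and 62.3% over those of protein-coding genes. No motif searched overlapped another in the printed runs.

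The alpha chains ITGA6, ITGA2 and ITGA3, which pair with ITGB1, differed by less than 1.5-fold in every probe set. ITGA6, a laminin receptor chain, read 3290 and then 2793 on the arrays labelled control and PGR siRNA, a difference of -0.24, and its second probe set gave -0.44. Both probe sets were thus lower on the array labelled PGR siRNA. ITGA2, a chain of a collagen and laminin receptor, read 2103 and 1881, a difference of -0.16, with 0.083 for its second probe set. ITGA3, also of a laminin receptor, read 223 and 274 and was 0.29 higher by its only probe set. The 3 laminin-binding chains therefore did not share a direction across all probe sets.

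ITGAV, the alpha chain of receptors for vitronectin, fibronectin and latent TGF-beta, read 4209 and 3768 on the arrays labelled control and PGR siRNA, a difference of -0.16. Its partner ITGB8 is the subunit with the lowest difference among those with both values usable, while its partner ITGB5 read 1498 and 1468, a difference of -0.030. A second usable probe set of ITGB5 gave -0.024. Another, past the floor only on the control-labelled array, gave -0.83, and with the mean of all its probe sets ITGB5 was at -0.37.

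ITGB1, the common beta chain, read 9128 and 9667, a difference of 0.083. Its other usable probe sets gave 0.054 and -0.057, so the 3 lay on both sides of 0. The 4 remaining ITGB1 probe sets were under the floor. ITGB4, which carries a long cytoplasmic tail that binds plectin at hemidesmosomes, read 879 and 652, a difference of -0.43. Of the 1000 genes nearest in signal 40 were as low or lower. Its other usable probe sets went both ways, at -0.36 and 0.15, and the mean of all 5 was -0.016.

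ITGA9, a chain that binds tenascin with ITGB1, read 142 and 125 on the arrays labelled control and PGR siRNA, a difference of -0.18. With its 3 other probe sets, all under the floor, averaged in, it stood at -0.94. ITGA10, a collagen-binding chain best known from cartilage, read 109.9 and 78.0, the latter under the floor, and was at least 1.12-fold lower with that value raised to the floor. ITGAE, whose product pairs with ITGB7 and binds E-cadherin on epithelial cells, read 3237 and 3676, a difference of 0.18 by its only probe set. ITGB7 read 4.30 and 9.90, under the floor on both arrays, so ITGAE had usable signal where its known partner did not.

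**Figure D2:**
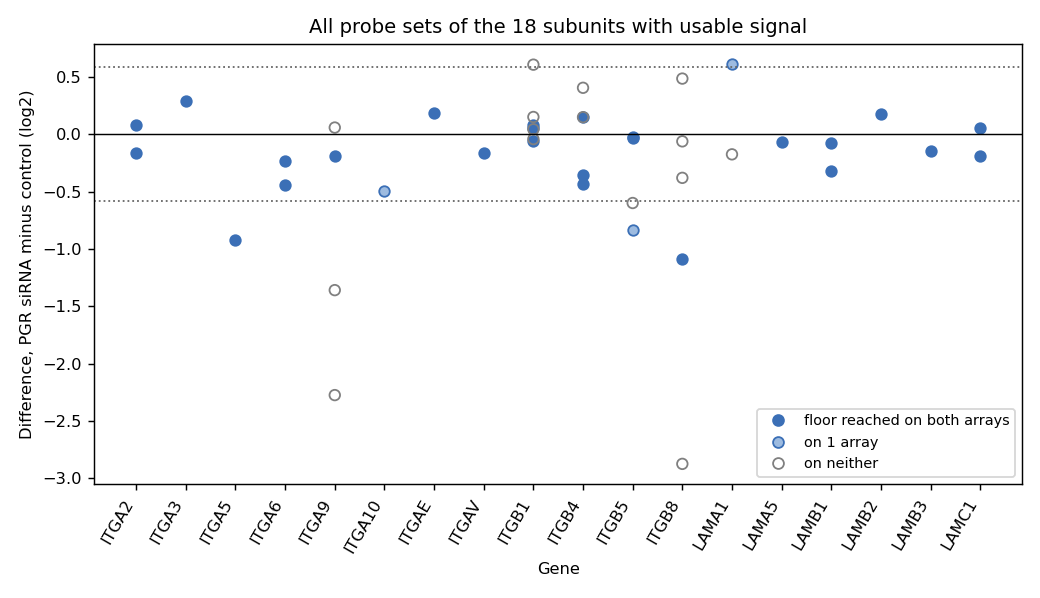
Difference (log2, array labelled PGR siRNA minus control-labelled array) of every probe set of the 18 subunits with usable signal, with filled points for the floor reached on both arrays, pale points for 1 array and open points for neither, and dotted lines at 1.5-fold. The filled points of ITGB4, from -0.43 to 0.15, spread widest, and the single filled point of ITGB8 lies at -1.09.

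The 13 integrin chains under the floor on both arrays have no usable level, and no difference between their values was read. ITGAL, ITGAM, ITGAX and ITGAD, the leukocyte alpha chains that pair with ITGB2, were all under it, as was ITGB2 at 24.0 and 32.1. ITGAE, which pairs with ITGB7 instead, was far past it, as given above. ITGA2B and ITGB3, of the platelet fibrinogen receptor, were under it, at 60.4 and 53.4 for ITGA2B and at 39.0 and 61.1 for ITGB3. So were ITGA4, a lymphocyte homing chain, and ITGB7. ITGA1 and ITGA11, which bind collagen, ITGA7, a laminin-binding chain of muscle, and ITGA8 complete the group. ITGAM, at 96.1 and 48.4, lies just under the floor on the control-labelled array, and ITGA5, at 100.4 on the array labelled PGR siRNA, just past it.

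Among laminins, the chains LAMA5, LAMB1 and LAMC1 form a trimer of epithelial basement membranes, and each had usable signal on both arrays. LAMA5 read 2193 on the control-labelled array and 2097 on the array labelled PGR siRNA, a difference of -0.064. LAMB1 read 2141 and 1714, a difference of -0.32, with -0.071 for its second probe set. LAMC1 read 2019 and 1767, a difference of -0.19, with 0.055 for its second probe set. The differences of these chains were under 1.5-fold in every probe set, and the LAMC1 probe sets ran in opposite directions.

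LAMB3, the beta chain of the laminin of hemidesmosomes, read 2301 and 2082 on the arrays labelled control and PGR siRNA, a difference of -0.14. LAMB2, a beta chain of vessel, kidney and synapse basement membranes, read 635 and 718, a difference of 0.18. LAMA1, an alpha chain of early development, read 73.5 and 113, a difference of 0.61. Its value on the control-labelled array was under the floor, and with it raised to the floor LAMA1 was at least 1.16-fold higher. LAMA2, LAMA4, LAMB4 and LAMC3 were under the floor on both arrays.

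Over the 16 subunits with both values past the floor the median difference was -0.16, beside 0.023 over all 10840 such genes. In this group 12 subunits were lower and 4 higher, beside 46.1% lower of all such genes. By probe set, 17 of 25 usable on both arrays were lower, beside 48.6% of 19569 for all genes. The median by probe set was -0.0715, closer to 0 than the median by gene, beside 0.0093 over the probe sets of all genes. The median over the 11 integrins was -0.16 and over the 5 laminins -0.14. Counting the 2 chains usable on 1 array only, it was -0.17 over 12 integrins and -0.10 over 6 laminins. Probe sets within a gene differed with an SD of 0.19 over the 7 subunits with several usable probe sets and of 0.26 over 5203 genes. That spread measures disagreement within the arrays and not between cultures.

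**Figure D3:**
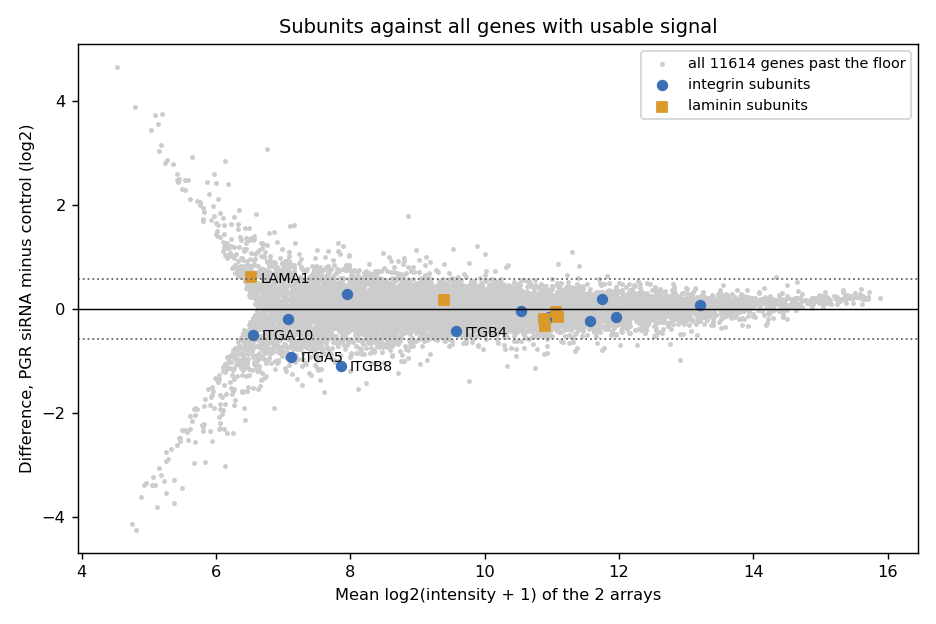
Difference (log2, array labelled PGR siRNA minus control-labelled array) against mean log2(intensity + 1) for 11614 genes past the floor on at least 1 array (grey), the 12 integrins (blue circles) and the 6 laminins (orange squares), with dotted lines at 1.5-fold. ITGB8 at -1.09 and ITGA5 at -0.92 are the lowest of the subunits plotted, while 184 of the 11614 genes were at least 2-fold lower. LAMA1 at 0.61 lies at the low signal end where the floor is reached on 1 array only.

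The proteins that work with these subunits were read in the same way from lists of known partners. Of 22 listed adaptors and other proteins that act at integrin tails and adhesions, 17 had usable signal, with 1 at least 1.5-fold higher, 1 at least 1.5-fold lower and a median of -0.13. TLN1, the talin that activates integrins, read 83.5, under the floor, on the control-labelled array and 148 on the other, at least 1.52-fold higher. TLN2, the second talin, read 132 and then 77.5, under the floor, at least 1.34-fold lower, and its second probe set ran the same way at -1.15. Among members of this list usable on both arrays, none passed 1.5-fold by its brightest probe set. By that reading PXN, the scaffold paxillin, was lowest at -0.57, and ILK, a pseudokinase of focal adhesions, was highest at 0.18. PARVA, also listed, was at 0.17 by its brightest probe set. Another of its usable probe sets read 202 and 122, a difference of -0.72, past 1.5-fold. The rest of its usable probe sets lay from -0.16 to 0.29.

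Of the hemidesmosome partners of ITGA6 and ITGB4, PLEC, the plectin that ties ITGB4 to keratin filaments, read 489 on the control-labelled array and 182 on the array labelled PGR siRNA. Its difference was -1.42, and a second PLEC probe set read 84.2, under the floor, and 113, a difference of 0.42. The probe sets of PLEC thus ran in opposite directions, and their mean was -0.50, under 1.5-fold. DST, the other plakin, was at -0.014, with its other usable probe sets from -0.080 to 0.19, and CD151, a tetraspanin that binds laminin receptors, was at 0.10. COL17A1, also listed, was not read by a probe set of a single gene.

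Of other laminin receptors, SDC4, a syndecan, was at -0.32 and the syndecan SDC1 at 0.45 by one probe set and 0.26 by another. BCAM, a laminin receptor of the immunoglobulin family, read 89.4, under the floor, and 125. None of the 3 passed 1.5-fold. DAG1 and RPSA, also on this list, were not read by a probe set of a single gene. Of 13 other basement membrane genes, 5 had usable signal and none passed 1.5-fold. Their median was -0.31, with the collagen COL4A2 lowest at -0.42 by one probe set and 0.010 by another, and the perlecan gene HSPG2 highest at 0.052.

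Of 18 integrin ligands other than laminin, 8 had usable signal and 1 was at least 1.5-fold lower. This was THBS1, thrombospondin, at -0.61, with its other usable probe sets at -0.30 and 0.032. LTBP1, which holds latent TGF-beta in the matrix, was highest at 0.21. The median was -0.053, and VTN, also listed, was not read. CDH1, E-cadherin and the ligand of ITGAE, was at -0.043 by one probe set and 0.13 by another, and TGFB1, whose latent form the ITGB8 receptor acts on, was at 0.082.

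**Figure D4:**
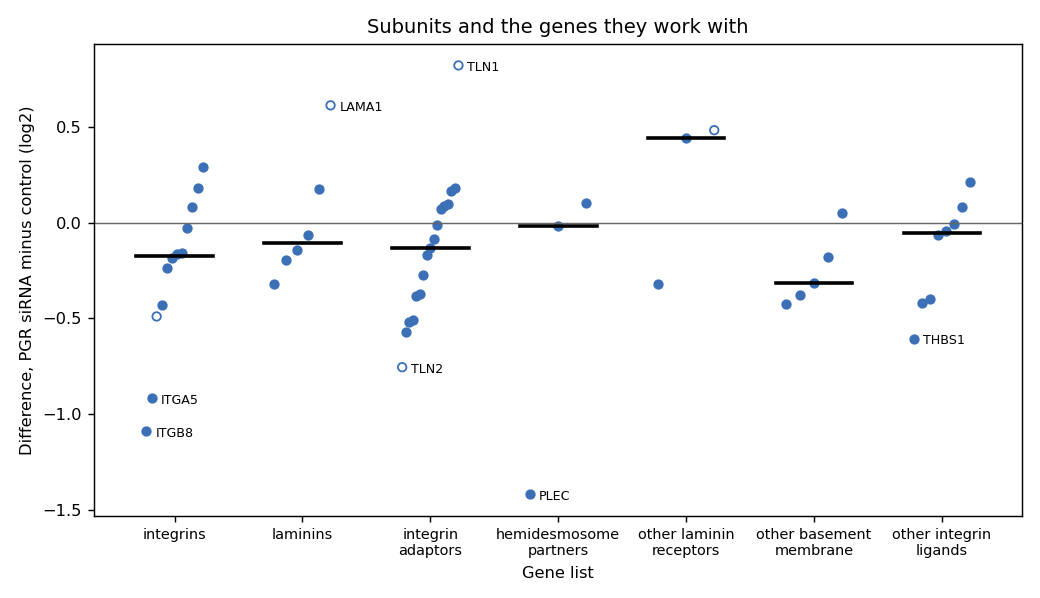
Difference (log2, array labelled PGR siRNA minus control-labelled array) of each gene past the floor on both arrays (filled points) or on 1 array (open points), for the integrins, the laminins and 5 lists of genes they work with, with the list median as a bar. Named points are past 1.5-fold. PLEC lies lowest at -1.42 by its brightest probe set, and the bars of integrins and laminins lie at -0.17 and -0.10.

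The direction of the subunits was compared across 6 other ways of reading the arrays, namely the mean of all probe sets, the mean of the probe sets usable on both arrays, median centring, quantile normalization, loess and an offset of 16. In 17 of the 18 subunits with usable signal the sign was the same in all 6. The exception was ITGB5, which median centring put at 0.021. Part of this agreement is fixed in advance. A changed offset cannot turn a sign, and both means return the reported value for a subunit with a single probe set, such as ITGA3 or ITGA5. The mean of usable probe sets also returns it for a subunit without a second probe set usable on both arrays, such as ITGB8. ITGA5 ran from -0.92 to -0.83 and ITGB8 from -1.09 to -0.78 over these readings. A mean over every probe set of a gene, usable or not, moved ITGA9, ITGB4, ITGB5, ITGB8 and LAMA1 by more than the SD of 0.26 between probe sets of a gene. For ITGB4 the mean of its usable probe sets alone was -0.21.

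**Figure D5:**
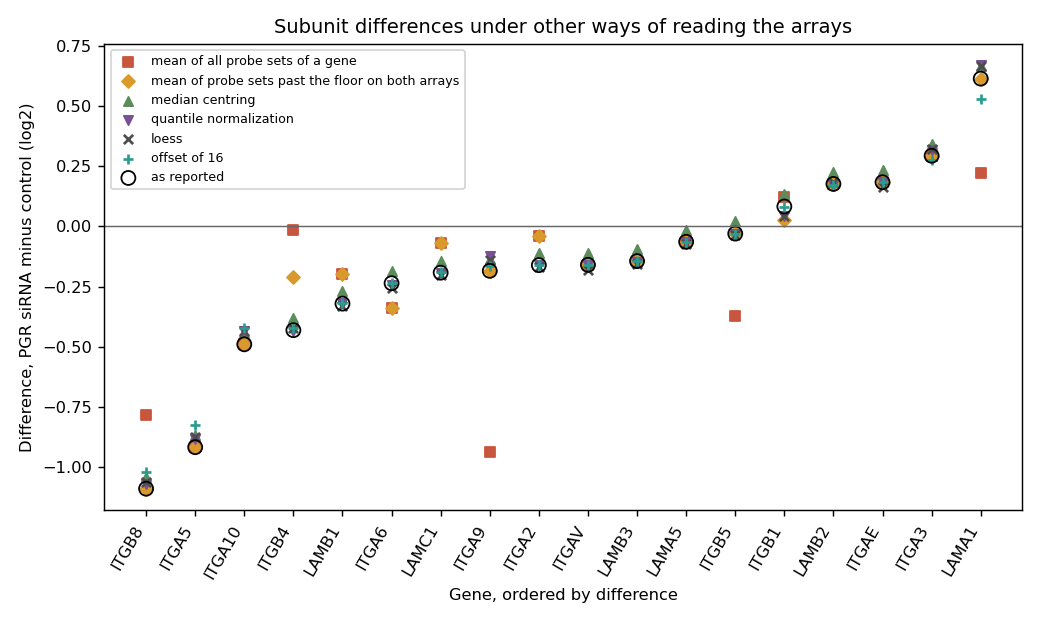
Difference (log2, array labelled PGR siRNA minus control-labelled array) of the 18 subunits with usable signal, ordered from ITGB8 to LAMA1, as reported (open circles) and under 6 other readings of the arrays (coloured marks). The marks farthest from the circles are the means of all probe sets, such as ITGA9 at -0.94.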

How the data were processed

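Total RNA of AsPC-1 cells was hybridised to expression arrays, 1 for each condition. The deposited values are linear intensity, 1 for each probe set. The sources used here do not give how the authors summarised them. The mean without 2% of values at each end came to 500.1 for either array, a scaling that removes a difference in overall brightness. Both value columns were mapped by accession.

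Of 54675 probe sets, 41097 had 1 gene symbol in the platform annotation, while 1801 with several and 11777 with none were not used. RefSeq gave the current symbol (GRCh38.p14) of 41043. Values were taken as log2(intensity + 1), and genes were counted at 1.5-fold and at 2-fold. A gene was read by its probe set of highest mean log2 value.

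The subunits, lists and alternatives were chosen with earlier results of these data known. All subunits are named, with the ends of each partner list and members past 1.5-fold. Other partners, the nearest 1000 genes, promoter motifs besides the progesterone receptor element, tetraspanins and the mean of usable probe sets were chosen after values were seen. The calculation was tested on simulated data, whose spread was smaller than that of the genes nearest ITGB8 and ITGA5 in signal. It checks the calculation and not the differences of these subunits. Python 3.11.15, numpy 2.4.6, pandas 2.3.3, statsmodels 0.14.6 (loess, span 0.7) and matplotlib 3.10.9 were used.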

Additional observations from a re-analysis of the deposited data

How the results depend on the processing

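The medians of integrins (from -0.25 to -0.12), laminins (from -0.14 to -0.054) and both together (from -0.16 to -0.11) stayed negative under all 10 alternatives and moved by less than 0.1. The count of subunits at least 1.5-fold lower, 2 as reported, was 0 with the floor at the 75th percentile, which neither ITGB8 nor ITGA5 reaches, and 5 with no signal filter, which takes in values under the floor. It was 3 by probe set and 3 by the mean over all probe sets. The count at least 2-fold lower, 1 as reported, was 0 with the floor at the 75th percentile, 0 by the mean over all probe sets and 2 with no signal filter. The count at least 1.5-fold higher, 1 as reported, was 0 with the floor at the 75th percentile, at the 95th percentile of olfactory receptors or on both arrays, by the mean over all probe sets and with an offset of 16, and 5 with no signal filter. The count at least 2-fold higher, 0 as reported, was 3 of 35 with no signal filter. By the mean over all probe sets, 770 genes of 11614 were at least 1.5-fold higher and 968 lower, beside 424 and 548. With both values past the floor 202 and 250 of 10840 were, and with the floor at the 75th percentile 44 and 55 of 7095. With the olfactory receptor floor 314 and 405 of 11046 were, and with an offset of 16 it was 350 and 472 of 11614. With no signal filter 2770 and 3277 of 19775 were. At 2-fold, 129 genes were higher and 184 lower as reported, and 289 and 340 by the mean over all probe sets. With the floor at the 75th percentile 7 and 5 of 7095 were, and with no signal filter 1796 and 2155 of 19775. No share over all genes is given for the count by probe set. Of 126 values of single subunits under other settings, 119 moved by less than the SD of 0.26 between probe sets of a gene and 7 by more, none turning the sign of a subunit past 1.5-fold. Some of the 119 could not move. A subunit with a single probe set keeps its value under both means. One without a second probe set usable on both arrays keeps it under the mean of usable probe sets. The settings also include raising values under the floor to it, which changes nothing where both values are past it. No paired analysis was possible because each condition has 1 array, and no array could be left out. Low signal limits ITGA5, ITGA9, ITGA10 and LAMA1, whose values lie near the floor.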

Other observations

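Tetraspanins are membrane proteins that gather integrins into clusters at the cell surface. By symbol, 32 were read and 18 had both values past the floor, with 9 higher and 9 lower on the array labelled PGR siRNA and a median difference of 0.0017, beside 0.023 over all such genes. TSPAN15, which guides the protease ADAM10 to its substrates, read 425 on the control-labelled array and 247 on the array labelled PGR siRNA, a difference of -0.78, and was the only 1 of these 18 past 1.5-fold. TSPAN1 was at -0.42 by its only probe set. TSPAN12 was at -0.46 by its brightest probe set, while its other usable probe sets gave -0.036 and 0.13. TSPAN31 was highest of the 18 at 0.37, with 0.22 for its second probe set, followed by TSPAN17 at 0.24 and CD63, a marker of late endosomes and exosomes, at 0.22. CD9 and CD81, both known to bind integrins with ITGB1, were at -0.0074 and -0.020. CD82, a tetraspanin that limits cell movement, read 150.5 and then 49.8, under the floor.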
